A study of Mus musculus with 6 samples.

Results

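Messenger RNA levels of the factors that start and extend protein synthesis were examined in cells labelled MC3T3-E1, a preosteoblast line derived from mouse calvaria. The genes were taken by name: every gene in the deposited table whose symbol begins with Eif and a digit from 1 to 6, or with Eef and 1 or 2, apart from the Eif2ak kinases. This gave 60 of the 14003 genes in it. Being listed in that table was the only measured property that entered the choice, but the set was proposed with results of this comparison already known, so its counts are given as a description. The 3 SAS libraries came from cells given 200 µM sulfasalazine, an anti-inflammatory drug, for 24 h. The 3 CTL libraries came from untreated cells. Both groups are labelled wild type and carry the same batch label, and the labels name no vehicle. They do not say whether the replicates of a group were cultured separately, so a p-value here reflects only how far these libraries differ, which may be technical.

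Eukaryotic initiation factors bring the small ribosomal subunit, the initiator tRNA and the capped mRNA together, scan to a start codon and then leave so that the large subunit can join. Elongation factors deliver each aminoacyl-tRNA and move the ribosome along the message. Much of the control of protein output acts on these proteins by phosphorylation, through the kinases of eIF2α, the mTOR target 4E-BP and the kinase of eEF2, and none of that is visible in mRNA levels. Growing cells make several of the elongation factors as abundant proteins.

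The values are FPKM, fragments scaled by gene length and by the mapped fragments of the library. Being per length, they can be compared between genes, but less closely where a gene shares sequence with others. The reads recovered from these values numbered 21579133, 19852472 and 19247900 in SAS replicates 1, 2 and 3, and 19613109, 20828706 and 15980935 in CTL replicates 1, 2 and 3. On the first principal component of all tested genes, which held 88.6% of the variance, CTL replicate 3 lay nearest to the SAS libraries of the 3 controls. Of the markers checked against the label, 7 of 12 osteoblast genes were in the table, with summed levels of 891 to 1113 FPKM in SAS libraries and 1552 to 2144 FPKM in CTL libraries. Nearly all of that was Spp1 (osteopontin), while Col1a1 (type I collagen) did not exceed 0.655 FPKM in any library and Sp7 (osterix) was listed at 0 in all controls. The 7 epithelial markers in the table summed to 1885 to 2093 FPKM in SAS libraries and 1294 to 1452 FPKM in CTL libraries. Most of that was keratin genes, which did not share a direction. Krt8 had 839 to 953 FPKM in SAS libraries and 260 to 324 FPKM in CTL libraries, and Krt18 844 to 961 and 654 to 774 FPKM. Krt19 was lower with SAS, at 105 to 186 FPKM against 308 to 394 FPKM in CTL libraries. Cdh1 overlapped between the groups, and Krt5, Krt14 and Cldn3 did not exceed 0.436 FPKM in any library. Fibroblast markers summed to 118.5 to 142 FPKM in SAS libraries and 141 to 198 FPKM in CTL libraries. Most of that was Ly6a, at 112 to 140 FPKM in SAS libraries and 135 to 193 FPKM in CTL libraries. Macrophage markers summed to 16.3 to 27.7 FPKM in SAS libraries and 31.8 to 56.2 FPKM in CTL libraries. Nearly all of this sum was Cd68, while Csf1r did not exceed 0.092 FPKM in any library. The endothelial and muscle markers stayed below 1 FPKM. The part of these marker levels in the results below was not tested.

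Promoter sequence was available from RefSeq (build GRCm38.p6) for 46 of the 60 genes, as 60 windows running from 250 bases before to 50 bases after an annotated start. The E-box CACGTG, a palindrome bound by MYC and related factors, is shown because it was present in 15 of the 60 windows of these genes, against 7.15% of all 32851 windows of the same length in the table. Genes with several annotated starts give several windows. Its 13 genes did not share a direction: 3 were higher with SAS, 5 lower and 5 did not pass the test. For all genes tested the shares were 37.2% higher and 29.3% lower. Below, Eif4e and Eif3a stand for the lower genes, Eif3f and Eef2k for the higher ones and Eif4g1 for those with no call, with E-boxes in capitals.
Eif4e, chr3:138527018-138527317, plus strand: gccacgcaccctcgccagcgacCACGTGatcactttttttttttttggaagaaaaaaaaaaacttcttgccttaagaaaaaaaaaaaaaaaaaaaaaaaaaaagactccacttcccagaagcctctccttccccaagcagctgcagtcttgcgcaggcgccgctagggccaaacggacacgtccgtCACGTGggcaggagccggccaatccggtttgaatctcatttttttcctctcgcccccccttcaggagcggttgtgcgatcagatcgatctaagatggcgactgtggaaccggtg
Eif3a, chr19:60790644-60790943, minus strand: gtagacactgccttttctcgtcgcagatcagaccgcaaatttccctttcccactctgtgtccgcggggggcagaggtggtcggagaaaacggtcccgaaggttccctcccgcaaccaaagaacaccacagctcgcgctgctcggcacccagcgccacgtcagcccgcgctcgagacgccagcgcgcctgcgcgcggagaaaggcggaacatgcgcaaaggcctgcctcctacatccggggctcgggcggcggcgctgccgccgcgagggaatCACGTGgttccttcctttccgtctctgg
Eif3f, chr7:108934165-108934464, plus strand: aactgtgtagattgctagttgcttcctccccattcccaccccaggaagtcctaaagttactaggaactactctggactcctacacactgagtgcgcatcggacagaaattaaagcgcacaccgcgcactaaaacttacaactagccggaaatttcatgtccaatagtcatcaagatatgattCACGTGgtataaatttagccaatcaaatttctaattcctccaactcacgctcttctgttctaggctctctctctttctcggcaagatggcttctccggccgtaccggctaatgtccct
Eef2k, chr7:120842581-120842880, plus strand: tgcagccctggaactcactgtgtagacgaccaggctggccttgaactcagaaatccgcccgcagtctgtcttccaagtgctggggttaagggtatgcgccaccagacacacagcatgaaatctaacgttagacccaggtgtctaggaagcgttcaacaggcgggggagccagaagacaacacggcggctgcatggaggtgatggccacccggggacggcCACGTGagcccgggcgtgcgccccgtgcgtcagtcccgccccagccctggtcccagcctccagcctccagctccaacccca
Eif4g1, chr16:20672477-20672776, plus strand: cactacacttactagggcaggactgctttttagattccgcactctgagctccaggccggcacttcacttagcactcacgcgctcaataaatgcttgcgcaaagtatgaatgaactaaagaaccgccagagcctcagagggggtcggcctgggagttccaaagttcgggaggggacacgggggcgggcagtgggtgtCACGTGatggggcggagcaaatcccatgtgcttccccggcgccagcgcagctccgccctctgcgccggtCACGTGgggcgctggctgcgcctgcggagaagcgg

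In the Eif4e window the E-boxes begin 228 and 64 bases before the start, and Eif4g1 also has a pair. The C/EBP-ATF response element, searched as TGATGNAA on both strands, was in 3.33% of the windows of these genes and 3.97% of all windows. The antioxidant response element, searched as TGACNNNGC on both strands, was in 18.3% and 12.4%. Of the motif matches in these genes, 3 pairs of different motifs overlapped. A match is a description of the letters and not evidence of binding. Many mRNAs of the translation apparatus begin with a C and a run of pyrimidines, the 5′ terminal oligopyrimidine tract through which mTOR controls their translation. At the RefSeq starts only Eif3f and Eif2s3x had a C followed by at least 4 pyrimidines, 3.33% of these windows against 2.51% of all. The tract had to begin exactly at the annotated base, so one beginning a few bases away was missed. The 14 genes without a window were not searched. No match therefore does not show that a gene lacks the tract. Their starts are shown with the tract in capitals, from 10 bases before the annotated start.
Eif3f, chr7:108934405-108934434, plus strand: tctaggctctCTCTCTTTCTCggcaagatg
Eif2s3x, chrX:94212632-94212661, minus strand: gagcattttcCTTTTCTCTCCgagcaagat

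With sulfasalazine more initiation factor genes were lower than higher, and the elongation factor gene Eef1a1, which ranked below Eef2 in every control and above it in every SAS library, was higher. Of the 60 genes, 58 passed the filter of 1 FPKM in at least 3 libraries. Among them 11 were higher with SAS (19%, against 37.2% of all 10338 genes tested) and 25 were lower (43.1%, against 29.3% of all genes tested), by limma with a Benjamini-Hochberg adjusted p under 0.05 over all genes. Counted in both directions 36 were called, against 66.5% of all genes tested, and the other 22 did not pass. With a log2 fold change of at least 1 in size also required, 7 were higher (12.1%, against 19.2% of all genes tested) and 8 lower (13.8%, against 13.9%), so at that threshold the share of lower genes was close to that of all genes. The median log2 fold change, SAS over CTL on the scale of log2(FPKM + 1), was -0.30 for these genes and 0.08 for all genes tested. Median-of-ratios scaling moved the median of all genes by -0.12, to -0.03, and that of these genes to -0.43. In the raw values, all 3 SAS libraries lay above all 3 controls for 14 genes (40.3% of all genes tested did so) and below them for 28 (31.1% of all genes tested). Eif3j2, counted in these 28 and in the 25 lower genes, passed the filter only through the controls, where it was high. In bulk RNA, fewer cells of a type and less RNA per cell cannot be told apart.

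**Figure D1:**
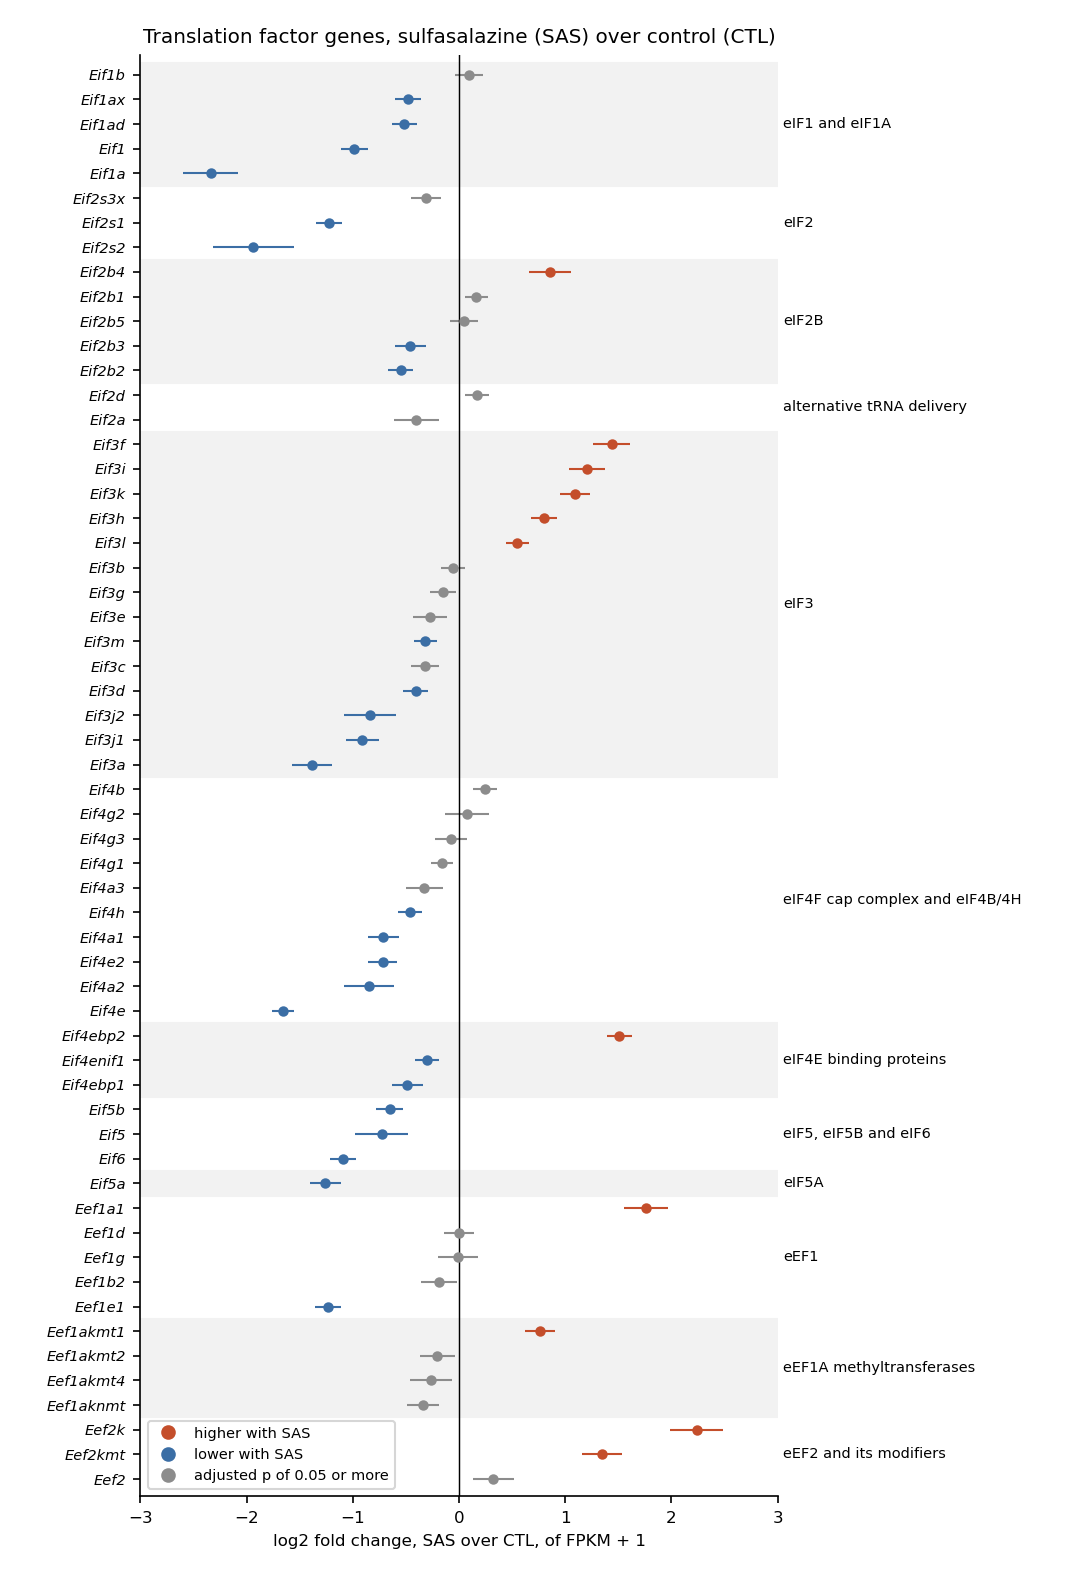
Log2 fold changes (SAS over CTL, of FPKM + 1) with their standard errors for the 58 tested translation factor genes, grouped by factor. Orange marks the 11 genes higher with SAS, blue the 25 lower and grey the 22 that did not pass; the elongation factor rows at the bottom hold Eef1a1 and Eef2k, and the rows of eIF1, eIF2, eIF5 and eIF6 hold no gene called higher.

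Levels spanned a wide range. Averaged over the 6 libraries, Eef1a1 (6401 FPKM) and Eef2 (5090 FPKM) led, followed by Eef1g (1589 FPKM), Eif1 (1413 FPKM), Eif5a (1239 FPKM) and Eif4a1 (888 FPKM), and 28 genes reached 100 FPKM. Only Eif4ebp3 and Eef1akmt3 averaged below 1 FPKM. The first and second places changed with treatment: Eef1a1 was 1.73, 1.79 and 1.72 times Eef2 in SAS replicates 1, 2 and 3, and 0.641, 0.688 and 0.606 times Eef2 in CTL replicates 1, 2 and 3. Other genes contain 40.4% of the 50-base words of Eef1a1 and 7.1% of those of Eef2, so the size of these ratios is uncertain. Eef1a1 alone made up 35.1% to 37.6% of the summed FPKM of the 60 genes in SAS libraries and 12.5% to 14.6% in CTL libraries. The reads on all 60 genes were 3.29%, 3.38% and 2.98% of the recovered reads in SAS replicates 1, 2 and 3, and 2.49%, 2.92% and 2.71% in CTL replicates 1, 2 and 3. Without Eef1a1 the summed level was 16232 to 17806 FPKM in SAS libraries and 17442 to 20071 FPKM in CTL libraries, with overlapping ranges.

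Selection of the start codon begins with eIF1 and eIF1A, which keep the scanning ribosome open until the right codon is reached. Of their 5 genes 4 were lower, against 29.3% of all genes tested, and 1 did not pass. Counts by factor are small and are given as a description. Eif1 (chromosome 11, 100319885 to 100322096 in build GRCm38) stood at 906, 911 and 1027 FPKM in SAS replicates 1, 2 and 3, against 1884, 1851 and 1898 FPKM in CTL replicates 1, 2 and 3. The groups were far apart and the controls nearly equal (log2 fold change -0.99, SE 0.13, limma adjusted p = 0.00026). Eif1a, which encodes eIF1A, had 15.3, 13.9 and 17.1 FPKM in SAS libraries, against 93.2, 111.5 and 52.5 FPKM in CTL libraries, where replicate 3 was well below the other controls. Its log2 fold change was -2.34 (SE 0.26, adjusted p = 0.00011), the lowest of the 58 genes in this fit. The X-linked Eif1ax, which encodes nearly the same protein as Eif1a, fell by 0.48 on the log2 scale, to 35.0 ± 3.21 FPKM in SAS libraries against 49.2 ± 4.37 FPKM in CTL libraries (SD, n = 3 each). Eif1ad, which codes for a protein with an eIF1A domain, fell by 0.52, and 15.3% of its exonic bases lie in Banf1 on the opposite strand. Eif1b, the close relative of Eif1, did not pass (59.9 ± 2.66 FPKM in SAS libraries, 56.4 ± 9.07 FPKM in CTL libraries, log2 fold change 0.10), although without replicate 3 of both groups it was called higher (adjusted p = 0.037).

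The initiator tRNA is carried by eIF2, made of 3 subunits, whose α subunit is the target of the stress kinases. Among the 3 eIF2 genes measured, 2 were lower (29.3% of all genes tested were). Eif2s1, encoding the α subunit (chromosome 12, 78861819 to 78887010), had 48.4, 46.9 and 54.9 FPKM in SAS libraries, against 117, 132 and 107 FPKM in CTL libraries. The groups did not overlap, and the log2 fold change was -1.22 (SE 0.12, adjusted p = 5.8e-05). Eif2s2, encoding the β subunit, had 17.0, 18.8 and 31.1 FPKM in SAS libraries, against 94.5, 138.9 and 47.1 FPKM in CTL libraries. Replicate 3 of either group lay towards the other group, and the log2 fold change of -1.94 (SE 0.38, adjusted p = 0.0023) became -2.61 without both. Eif2s3x, encoding the γ subunit that binds GTP and the tRNA, had 27.4, 26.7 and 27.8 FPKM in SAS libraries and 37.4, 38.0 and 27.9 FPKM in CTL libraries. It did not pass (log2 fold change -0.31, adjusted p = 0.089), but was called lower without CTL replicate 3 (adjusted p = 0.0025) and under median-of-ratios scaling and quantile normalization (adjusted p = 0.027 and 0.04). Within a library, Eif2s2 was 0.351, 0.402 and 0.567 times Eif2s1 in SAS replicates 1, 2 and 3, and 0.809, 1.055 and 0.440 times Eif2s1 in CTL replicates 1, 2 and 3, so the ranges overlapped through replicate 3 of both groups. Other genes contain 34.6% of the 50-base words of Eif2s3x, which leaves part of its reads uncertain.

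After each round eIF2 is recharged with GTP by eIF2B, a factor of 5 subunits that phosphorylated eIF2 blocks. Its genes did not share a direction: 1 was higher, 2 were lower and 2 did not pass. All genes tested gave 37.2% higher and 29.3% lower. Eif2b4, encoding the δ subunit, had 40.0, 43.4 and 42.0 FPKM in SAS libraries, against 21.2, 17.6 and 31.0 FPKM in CTL libraries (log2 fold change 0.86, SE 0.19, adjusted p = 0.0048). The SAS libraries agreed closely and all lay above the controls, and 7.8% of its exonic bases lie in Snx17 on the opposite strand. Eif2b2, for the β subunit, stood at 218, 221 and 195 FPKM in SAS libraries, against 295, 289 and 346 FPKM in CTL libraries (log2 fold change -0.55, SE 0.12, adjusted p = 0.0032), and was the most abundant of the 5. Under quantile normalization its log2 fold change was -0.36. Eif2b3, for the γ subunit, fell by 0.46 (adjusted p = 0.022), a call lost without SAS replicate 1 or 2 (adjusted p = 0.097 and 0.087). Eif2b5, which encodes the catalytic ε subunit, had 100, 101 and 85.9 FPKM in SAS libraries and 82.9, 86.5 and 109.5 FPKM in CTL libraries. These overlap, with a log2 fold change of 0.05 (95% interval -0.26 to 0.36, adjusted p = 0.77). Without replicate 3 of both groups Eif2b5 was called higher (0.24, adjusted p = 0.026), as was Eif2b1, for the α subunit (0.25, adjusted p = 0.042). Eif2a and Eif2d, whose proteins can bring tRNA to the ribosome without eIF2, did not pass. Eif2a had 11.6, 9.74 and 11.97 FPKM in SAS libraries and 16.2, 18.8 and 10.8 FPKM in CTL libraries, and was called lower without CTL replicate 3 (adjusted p = 0.0046) and under median-of-ratios scaling and quantile normalization (0.047 and 0.028).

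The scaffold factor eIF3 joins the small subunit to eIF4G and the mRNA, and of its 14 tested genes 5 were higher, 5 were lower and 4 did not pass. These shares, 35.7% in each direction, stand near the 37.2% higher and 29.3% lower of all genes tested. The 5 lower genes include Eif3j2, which passed the filter only through the controls. Eif3f (chromosome 7, 108934417 to 108942951), whose promoter is printed above, had 541, 513 and 430 FPKM in SAS libraries, against 143, 184 and 224 FPKM in CTL libraries. Every SAS value was well above every control (log2 fold change 1.44, SE 0.18, adjusted p = 0.00019). Eif3a (chromosome 19, 60761117 to 60790658), which codes for the largest subunit, had 124, 107 and 118 FPKM in SAS libraries, against 337, 375 and 223 FPKM in CTL libraries. Here the order was the opposite (log2 fold change -1.38, SE 0.19, adjusted p = 0.00034), and CTL replicate 3 was the lowest control. The other higher genes were Eif3i at 1.21, Eif3k at 1.09, Eif3h at 0.80 and Eif3l at 0.55 on the log2 scale. The subunits f and h belong to a pair of related proteins with an MPN domain, and k and l to the PCI-domain subunits, which also include a, c, e and m.

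The other lower eIF3 genes were Eif3j1 (-0.91), Eif3j2 (-0.84), Eif3d (-0.41) and Eif3m (-0.32). Eif3j1 and Eif3j2 encode nearly the same protein, and 50.9% and 91.8% of their 50-base words are shared, mainly with each other, so their reads cannot be divided with certainty. Eif3j2 reached 1 FPKM in all 3 controls but in only 1 SAS library, so it entered the test through the group where it was high, and its call is no support for a fall. For Eif3d, 43.3% of the exonic bases lie in Gm17638 on the opposite strand. The calls of Eif3d, Eif3j2 and Eif3m were each lost when a single library was left out, SAS replicate 1 or 2 for Eif3d (adjusted p = 0.061 and 0.051), SAS replicate 1 or 3 for Eif3j2 (0.052 and 0.055) and any of 4 libraries for Eif3m (0.05 to 0.11). On the scale of recovered reads (limma voom) the fall of Eif3j2 was -1.44, and without replicate 3 of both groups it was -0.48. Eif3b and Eif3g, which with Eif3i form the part of eIF3 conserved in budding yeast beside a and c, did not pass: Eif3b had 268.6 ± 15.1 FPKM in SAS libraries and 280.3 ± 29.1 FPKM in CTL libraries. Eif3c (log2 fold change -0.32, adjusted p = 0.055) and Eif3e (-0.27, adjusted p = 0.16) did not pass either, and both were called lower without replicate 3 of both groups (adjusted p = 0.0034 and 0.0014) and under median-of-ratios scaling (0.021 and 0.038).

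The span between the highest and the lowest eIF3 gene was also wider in the SAS libraries, by little in replicate 3. This measure rests on the extreme genes of each library and was not tested. Across the 12 subunit genes other than Eif3j1 and Eif3j2, the highest was 18.4, 15.5 and 11.1 times the lowest in SAS replicates 1, 2 and 3, and 8.08, 7.31 and 9.92 times the lowest in CTL replicates 1, 2 and 3. Eif3h was the highest in all SAS libraries and Eif3d in all CTL libraries. The ratio of Eif3f to Eif3a was 4.37, 4.79 and 3.65 in SAS libraries and 0.425, 0.491 and 1.01 in CTL libraries. This pair had the highest and the lowest log2 fold change among the eIF3 genes. The gap between the groups follows from that choice and is no further support.

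**Figure D2:**
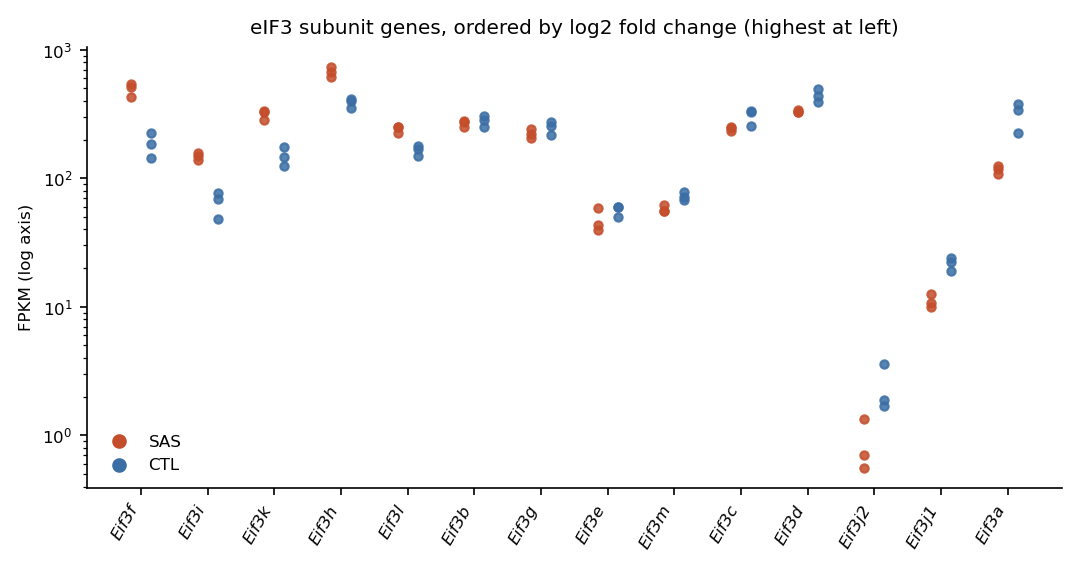
FPKM (log axis) of the 14 eIF3 subunit genes in each library, SAS in orange and CTL in blue, ordered from the highest log2 fold change at the left. SAS points lie above all controls from Eif3f to Eif3l and below them for Eif3m, Eif3c, Eif3d, Eif3j2, Eif3j1 and Eif3a.

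The mRNA cap is bound by eIF4F, in which eIF4E holds the cap, eIF4A unwinds the leader and eIF4G connects them. Of the 10 tested genes of this group, with the eIF4A partners eIF4B and eIF4H, 5 were lower and 5 did not pass. The lower share was 50%, against 29.3% of all genes tested. Eif4e (chromosome 3, 138526179 to 138559696) had 33.1, 31.3 and 35.1 FPKM in SAS libraries, against 110.2, 110.3 and 100.1 FPKM in CTL libraries. Both groups were tight and far apart (log2 fold change -1.66, SE 0.10, adjusted p = 9.6e-06). Eif4e2, which encodes the cap-binding repressor 4EHP, had 45.9, 44.7 and 49.0 FPKM in SAS libraries, against 65.5, 77.9 and 90.1 FPKM in CTL libraries, a log2 fold change of -0.72 (SE 0.13). The within-library log2 ratio of Eif4e2 to Eif4e was 0.48 ± 0.02 in SAS libraries and -0.46 ± 0.30 in CTL libraries (SD, n = 3 each), so Eif4e2 was above Eif4e in every SAS library and below it in every control.

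Both helicase genes were lower. Eif4a1 had 637, 702 and 669 FPKM in SAS libraries, against 1103, 1276 and 939 FPKM in CTL libraries (log2 fold change -0.71, SE 0.14, adjusted p = 0.0027), and other genes, mainly pseudogenes, contain 28.4% of its 50-base words. Eif4a2 had 71.8, 75.1 and 98.9 FPKM in SAS libraries, against 188.8, 165.2 and 101.0 FPKM in CTL libraries, so that replicate 3 of the groups nearly met. Its log2 fold change of -0.85 (SE 0.23, adjusted p = 0.012) did not pass without CTL replicate 2 (adjusted p = 0.053). Eif4h fell by 0.46 on the log2 scale, and by 0.29 under quantile normalization. Eif4b, for the other eIF4A partner, had 480 ± 43.3 FPKM in SAS libraries and 404 ± 20.7 FPKM in CTL libraries, which did not pass (adjusted p = 0.09), and was called higher without SAS replicate 3 (0.048) and under quantile normalization (0.031).

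The scaffold genes did not pass. Eif4g1 had 363, 362 and 331 FPKM in SAS libraries and 398, 405 and 377 FPKM in CTL libraries. All SAS values were below all controls, but by little (log2 fold change -0.16, 95% interval -0.39 to 0.08, adjusted p = 0.2). Eif4g2, whose protein DAP5 cannot bind eIF4E, had 722, 729 and 748 FPKM in SAS libraries and 802, 856 and 488 FPKM in CTL libraries, with CTL replicate 3 below every other library. Eif4g3 was called lower only without CTL replicate 3, alone or together with SAS replicate 3 (adjusted p = 0.03 and 0.043). Eif4a3, whose protein marks exon junctions rather than starting translation, had a log2 fold change of -0.33 and was called lower without CTL replicate 1 (adjusted p = 0.011).

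Cap binding is held back by the 4E-BP proteins, which occupy eIF4E until mTOR phosphorylates them, and their genes were called in opposite directions. Eif4ebp2 (chromosome 10, 61428491 to 61452661) had 114.9, 111.4 and 112.7 FPKM in SAS libraries, against 40.2, 33.7 and 43.8 FPKM in CTL libraries. The SAS libraries were almost identical, and the log2 fold change was 1.51 (SE 0.12, adjusted p = 2.3e-05). Eif4ebp1 (chromosome 8, 27260329 to 27276674) had 101.7, 104.5 and 100.2 FPKM in SAS libraries, against 114.1, 164.4 and 157.6 FPKM in CTL libraries, with CTL replicate 1 close to the SAS values. Its log2 fold change of -0.49 (SE 0.15, adjusted p = 0.018) did not pass without SAS replicate 1 or 3, without CTL replicate 2 or with both replicates numbered 3 left out (adjusted p = 0.051 to 0.069). Eif4ebp3 was listed at 0.121 FPKM in SAS replicate 1 and 0 in SAS replicates 2 and 3, and at 0.134 and 0.126 FPKM in CTL replicates 1 and 2 and 0 in CTL replicate 3. With no more than 2 reads in a library it could not be compared. Eif4enif1, for the eIF4E transporter 4E-T, fell by 0.30 (adjusted p = 0.042), and the call was lost on leaving out any library other than CTL replicate 3 (adjusted p = 0.053 to 0.15).

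The log2 ratio of Eif4ebp2 to Eif4ebp1 within a library was 0.14 ± 0.05 in SAS libraries and -1.85 ± 0.39 in CTL libraries (SD, n = 3 each). The summed FPKM of Eif4ebp1 and Eif4ebp2 was 217, 216 and 213 in SAS replicates 1, 2 and 3, and 154, 198 and 201 in CTL replicates 1, 2 and 3. Set against Eif4e, that sum was 6.55, 6.90 and 6.06 times the cap-binding gene in SAS libraries, and 1.40, 1.80 and 2.01 times in CTL libraries. Proteins and their phosphorylation were not measured.

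Of 6 pairs of related genes compared within libraries, the groups did not overlap for Eif4ebp2/Eif4ebp1, Eif4e2/Eif4e and Eif1b/Eif1. Each of these 3 gave p = 0.1 in an exact two-sided permutation test of 3 against 3 libraries, the smallest value that the design allows, and 0.2 after adjustment over the 6 pairs. The log2 ratio of Eif1b to Eif1 was -3.96 ± 0.17 in SAS libraries and -5.04 ± 0.21 in CTL libraries, so Eif1 remained by far the more abundant. The log2 ratios of Eif4a2 to Eif4a1 (-3.03 ± 0.25 in SAS libraries, -2.90 ± 0.34 in CTL libraries), Eif4g2 to Eif4g1 (1.06 ± 0.10 and 0.82 ± 0.39) and Eif4g3 to Eif4g1 (-2.61 ± 0.04 and -2.69 ± 0.24) overlapped between the groups, with exact permutation p = 0.6, 0.6 and 0.9.

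**Figure D3:**
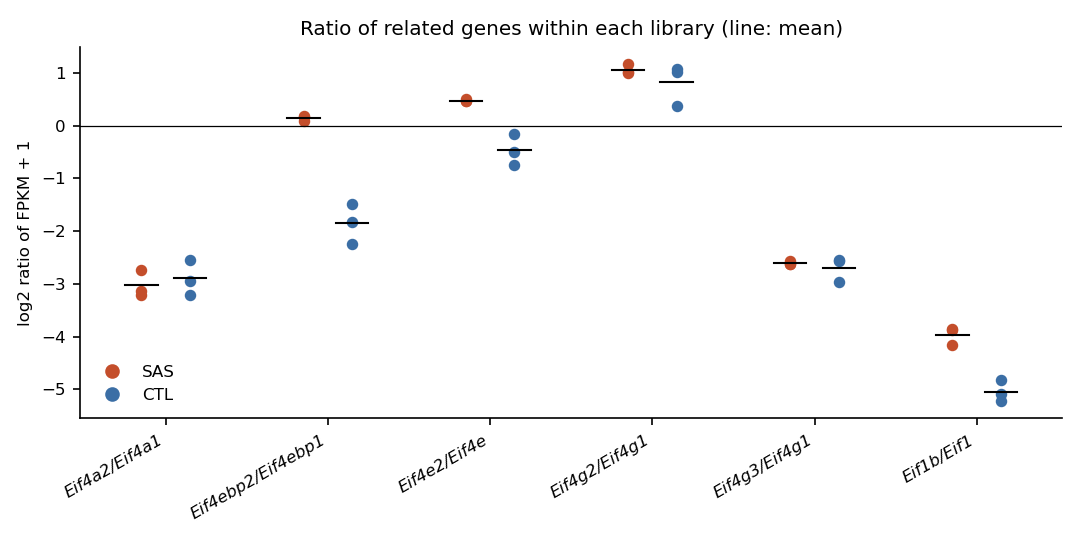
Log2 ratio of FPKM + 1 between related translation factor genes within each library, SAS in orange and CTL in blue, with lines at the means of 3 libraries. The groups separate for Eif4ebp2/Eif4ebp1, Eif4e2/Eif4e and Eif1b/Eif1 and overlap for the other 3 pairs.

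Once the start codon is found, eIF5 triggers GTP hydrolysis on eIF2, eIF5B joins the large subunit and eIF6, bound to that subunit, must come off first. All 3 genes were lower, where 29.3% of all genes tested were. Eif6 (chromosome 2, 155819832 to 155826925) had 198, 210 and 187 FPKM in SAS libraries, against 390, 399 and 489 FPKM in CTL libraries, a clear separation (log2 fold change -1.09, SE 0.12, adjusted p = 0.00012). Eif5 had 122, 117 and 164 FPKM in SAS libraries, against 260, 281 and 147 FPKM in CTL libraries, where replicate 3 of the groups crossed. Its log2 fold change was -0.73 (SE 0.25, adjusted p = 0.03), and -1.17 with the replicate 3 libraries left out (adjusted p = 2.3e-05). The call was lost without SAS replicate 1 or 2 or CTL replicate 1 or 2 (adjusted p = 0.085 to 0.11), with no filter (0.054) and under quantile normalization (0.06). Eif5b fell by 0.65 on the log2 scale (adjusted p = 0.0021), and 16.8% of its exonic bases lie in Rev1 on the opposite strand.

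Elongation past difficult stretches such as runs of proline needs eIF5A, the protein known to carry the amino acid hypusine. Eif5a (chromosome 11, 69916714 to 69921958) had 745, 733 and 702 FPKM in SAS libraries, against 1504, 1731 and 2017 FPKM in CTL libraries. The controls were uneven but all above every SAS library (log2 fold change -1.26, SE 0.15, adjusted p = 0.00015). The genes of both hypusine enzymes were lower too, Dhps by 0.81 and Dohh by 0.57 on the log2 scale, although 47.5% of the exonic bases of Dohh lie in Gm48551 on the same strand.

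Aminoacyl-tRNA is delivered by eEF1A and the factor is recharged by eEF1B, whose subunits are encoded by Eef1b2, Eef1d and Eef1g. Eef1a1 (chromosome 9, 78478449 to 78489151) had 10114, 10729 and 8790 FPKM in SAS libraries, against 2561, 3424 and 2786 FPKM in CTL libraries. The means, 9878 ± 991 FPKM in SAS libraries and 2924 ± 448 FPKM in CTL libraries (SD, n = 3 each), differed 3.38-fold (log2 fold change 1.76, SE 0.21, adjusted p = 0.00015). Under quantile normalization, which gives every library the same set of values, the log2 fold change was 0.82 (adjusted p = 0.0031). Another 21 gene entries, chiefly Gm13456, share 40.4% of its 50-base words, so part of the reads cannot be assigned with certainty. The genes of the exchange factor did not pass the test: Eef1b2 had 467 ± 29.7 FPKM in SAS libraries and 540 ± 116 FPKM in CTL libraries, Eef1d 309 ± 16.1 and 311 ± 54.1 FPKM, and Eef1g 1579 ± 182 and 1600 ± 319 FPKM. Eef1g shares 44.2% of its 50-base words with other genes, mainly Gm4366, so its level carries the same uncertainty. Eef1b2 was called lower without CTL replicate 1 (adjusted p = 0.028). Eef1a1 was 20.4, 22.7 and 20.2 times Eef1b2 in SAS libraries and 6.25, 5.94 and 4.40 times Eef1b2 in CTL libraries.

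Eef1e1, named with these factors but encoding a scaffold protein of the multi-tRNA synthetase complex, had 20.4, 17.2 and 19.1 FPKM in SAS libraries, against 41.7, 48.4 and 47.2 FPKM in CTL libraries. Its fall of -1.23 on the log2 scale (SE 0.12, adjusted p = 6.9e-05) was the lowest among the Eef genes in this fit. Of the methyltransferases that modify eEF1A, Eef1akmt1 was higher, with 32.7, 31.5 and 29.8 FPKM in SAS libraries against 16.2, 17.0 and 21.2 FPKM in CTL libraries (log2 fold change 0.76, SE 0.14, adjusted p = 0.0015). Eef1akmt2, Eef1akmt4 and Eef1aknmt did not pass, at -0.20, -0.27 and -0.34. Eef1akmt4 was called lower without CTL replicate 1 (adjusted p = 0.037) and Eef1aknmt without CTL replicate 2 (0.048) and under median-of-ratios scaling and quantile normalization (0.03 and 0.024). Eef1akmt3 stayed below the filter, at 0.112 to 0.216 FPKM in SAS libraries and 0.0173 to 0.184 FPKM in CTL libraries, from 1 to 12 reads.

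The ribosome is moved along by eEF2, which its kinase eEF2K inactivates by phosphorylation. Eef2k (chromosome 7, 120842831 to 120907450) had 33.0, 29.0 and 32.2 FPKM in SAS libraries, against 4.37, 4.73 and 9.50 FPKM in CTL libraries. CTL replicate 3 lay above the other controls and far below the SAS values, and the log2 fold change of 2.24 (SE 0.25, adjusted p = 0.00013) was the highest of the 58 genes in this fit. The means differed 5.06-fold, 31.4 ± 2.10 FPKM in SAS libraries and 6.20 ± 2.86 FPKM in CTL libraries (SD, n = 3 each). Eef2 itself (chromosome 10, 81176631 to 81182498) had 5850, 5995 and 5120 FPKM in SAS libraries and 3998, 4978 and 4599 FPKM in CTL libraries. All SAS values lay above the controls, the nearest by a small margin, and the difference did not pass (log2 fold change 0.32, 95% interval -0.12 to 0.77, adjusted p = 0.17). Under quantile normalization Eef2 was called lower (log2 fold change -0.93, adjusted p = 0.0011), so no direction is given for it. Eef2kmt, for a methyltransferase that acts on eEF2, had 60.4, 63.3 and 55.5 FPKM in SAS libraries, against 18.2, 21.2 and 30.8 FPKM in CTL libraries (log2 fold change 1.35, SE 0.19, adjusted p = 0.00035), and 23.0% of its exonic sequence overlaps other genes, above all Alg1 on the opposite strand.

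**Figure D4:**
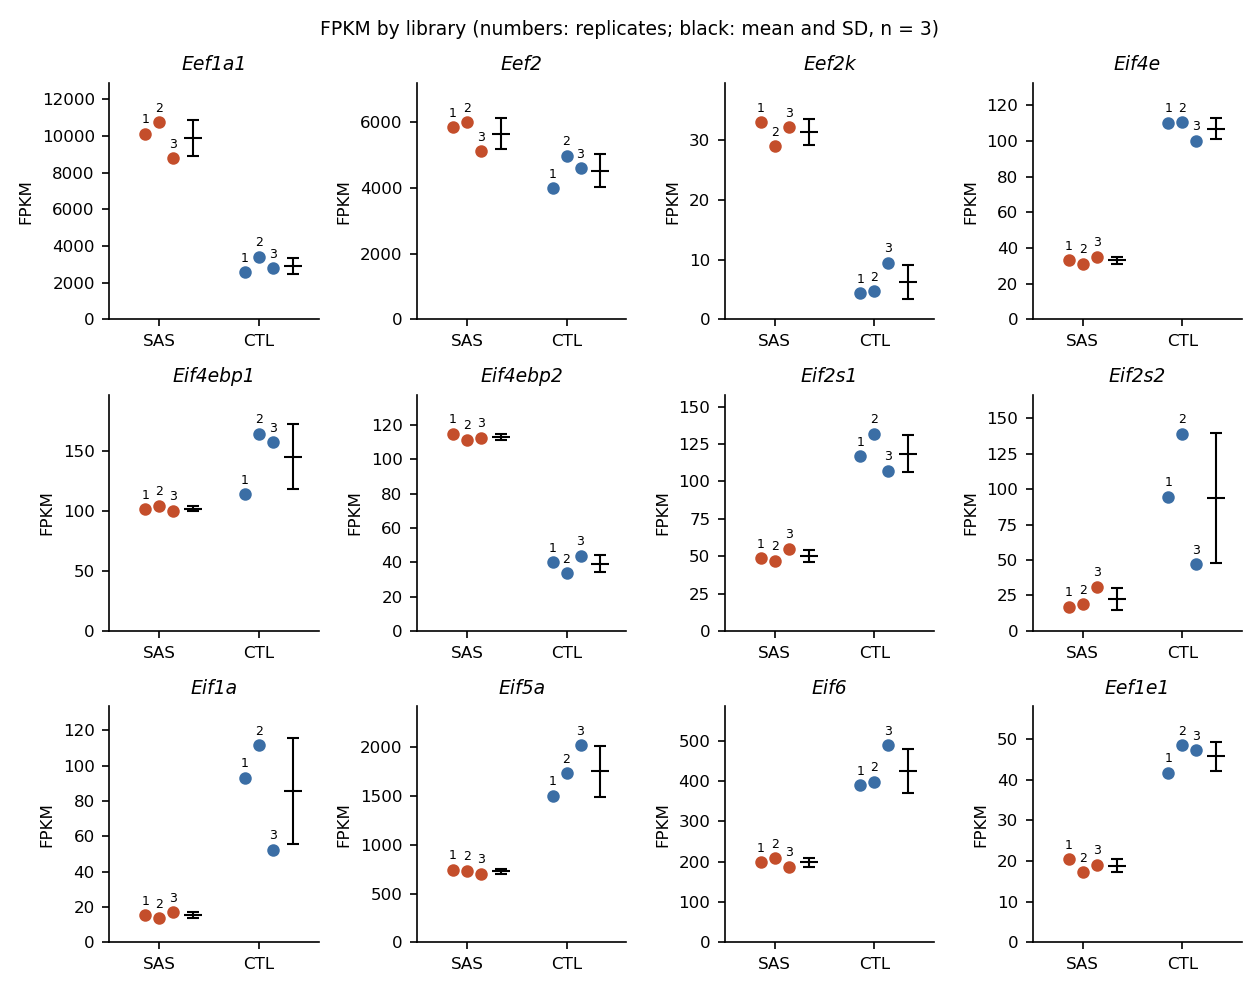
FPKM of 12 translation factor genes in each library, SAS left of CTL, with the replicate number at each point and the mean and SD of 3 libraries in black. The groups are apart in every panel. CTL replicate 3 is the control nearest to the SAS libraries for Eif2s1, Eif2s2, Eif1a, Eef2k, Eif4e and Eif4ebp2. For Eif5a and Eif6 it is the control farthest from them.

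CTL replicate 3, the library with the fewest reads, was the lowest control for 19 of the 58 genes and the highest for 28. Without that library 11 of the 58 genes were higher and 29 lower (19% and 50%, against 40.7% and 34.1% of all genes tested). With SAS replicate 3 removed as well 15 were higher and 29 lower (25.9% and 50%, against 41% and 36.8% of all genes tested).

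Other genes that act on these factors were read from the same fit, in which 37.2% of all genes tested were higher and 29.3% lower. The counts below are small and are given as a description beside those shares. Among 9 genes for the kinases and phosphatase subunits of eIF2α and their regulators, 3 were higher and 4 lower. Ppp1r15a, the stress-induced phosphatase subunit GADD34, had 48.3 ± 12.98 FPKM in SAS libraries and 916 ± 133 FPKM in CTL libraries (log2 fold change -4.24, SE 0.20), and Impact, which restrains the kinase GCN2, had 2.94 ± 0.26 and 14.6 ± 6.41 FPKM (-1.89, SE 0.31). Of the kinases, Eif2ak1 rose by 1.15, Eif2ak2 by 0.64 and Eif2ak4 by 0.44 on the log2 scale, and Eif2ak3 did not pass. Among 12 tested genes of the mTORC1 pathway 3 were higher and 6 lower. The higher and the lower genes both included inhibitors of the pathway. Tsc2 (log2 fold change 0.98) was higher, while Akt1s1 (-1.01), Sesn2 (-1.01) and Tsc1 (-0.75) were lower. Ddit4, another inhibitor, was higher at 168 ± 24.0 FPKM in SAS libraries and 60.7 ± 16.7 FPKM in CTL libraries, and the S6 kinase gene Rps6kb1 was lower at 12.8 ± 1.24 and 28.4 ± 3.76 FPKM.

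Among 10 genes for the MNK kinases, which phosphorylate eIF4E, for poly(A)-binding partners and for other regulators, 3 were higher and 7 did not pass. The higher genes were Pdcd4, Mknk2 and Cyfip1 (log2 fold change 0.48), and no gene of the poly(A)-binding partners passed. Pdcd4, an inhibitor of eIF4A, had 13.7 ± 1.39 FPKM in SAS libraries and 1.36 ± 0.21 FPKM in CTL libraries (log2 fold change 2.63, SE 0.15, adjusted p = 8.4e-06), and Mknk2, for the kinase MNK2, had 589 ± 32.0 and 106 ± 22.7 FPKM (2.48, SE 0.16, adjusted p = 1.2e-05). Of the 9 enzymes for hypusine and for diphthamide, the modified histidine of eEF2, 7 were lower and 2 did not pass. Dph2 fell by 0.99 and Dph3 by 0.87 on the log2 scale. Of 8 tested genes for termination and recycling 5 were lower and 1 higher, with Abce1, which splits ribosomes, at 20.1 ± 3.85 FPKM in SAS libraries and 67.1 ± 26.0 FPKM in CTL libraries, and the release factor gene Gspt1 at 74.4 ± 1.601 and 199 ± 21.02 FPKM. Of 10 genes for mitochondrial translation factors 3 were higher and 2 lower, neither share above that of all genes tested. Tufm, for the mitochondrial counterpart of eEF1A, had 180 ± 19.9 FPKM in SAS libraries and 84.3 ± 12.7 FPKM in CTL libraries (log2 fold change 1.09), with 54.5% of its 50-base words in Gm9755, and Mrrf, for the recycling factor, had 28.6 ± 3.47 and 52.2 ± 0.12 FPKM (-0.85).

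In the authors' deposited table, 6 of the 60 genes are marked up (18.8% of all genes there) and 11 down (16.1%). These marks leave out smaller changes: Eif3k, at a log2 fold change of 0.99 with a deposited adjusted p under 0.05, is not marked. At a deposited adjusted p under 0.05 alone, 11 of the 60 genes are higher and 30 lower. The share of all genes at that threshold was not counted. The authors' deposited table gives Eef2k a log2 fold change of 2.24, Eef1a1 1.66, Eif4e -1.79 and Eif1a -2.58.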

How the data were processed

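RNA sequencing of 3 SAS and 3 CTL libraries gave 1 table of 14003 genes. Per the submitters' processing notes the tools were fastp 0.23.0, HISAT2 2.2.1, HTSeq 0.13.5 and edgeR with build mm39; their settings, and whether counting used strand, are not stated. The deposited FPKM values were tested. The authors' deposited table also gives log2 fold changes, p-values and a call per gene, and the deposited normalised values per library, of a signal type, were not tested. For 13849 genes, all 60 described here among them, start and end equal those of GENCODE M21, so coordinates are given as GRCm38.

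Of the genes, 10338 reached 1 FPKM in at least 3 libraries. Log2(FPKM + 1) was fitted with limma 3.58.1 (R 4.3.3, empirical Bayes with a mean trend; two-sided tests), p-values were adjusted over all tested genes by Benjamini-Hochberg, and the threshold was 0.05. Fold changes on this scale understate those of low genes. Whole reads were recovered from the FPKM steps for all genes within 0.0001 reads (1521 genes allowed more than 1 solution). As an alternative, limma voom on those reads called 11 of the 58 tested genes higher and 25 lower. These were 19% and 43.1%, against 37.6% and 29.2% of all genes tested. Intervals are 95% confidence intervals of the log2 fold change, from its standard error in the fit, and rest only on the spread between these libraries. Related genes were compared by exact permutation tests. The fit was checked on simulated data, where 99.8% of genes changed by 1 log2 unit were recovered (10270 to 10299 genes per simulation of SAS against CTL). Each simulation changed 200 genes, none of the lowest in level, with the same spread set for every gene (dispersion 0.02). In the real libraries 66.5% of tested genes were called, and the controls of some genes were far less even. The rate is therefore not the power of the test in these libraries.

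The genes and lists were chosen with earlier results of these data known. Full statistics are given for a set list of key factors and for the 2 genes of each role with the largest change among those called. Shared 50-base words and overlapping exons were taken from GENCODE M21. Eif2s3y, Eif4e1b, Eif4e3, Eif4a3l1, Eif4a3l2, Eif5a2 and Eef1a2 were not analysed here.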

Additional observations from a re-analysis of the deposited data

How the results depend on the processing

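Of the 36 called genes, 28 kept their call under all 15 alternatives (11 of 11 higher and 17 of 25 lower), and 0 turned direction. Across these alternatives 11 to 15 were called higher (18.3% to 25.9%, against 30.5% to 41% of all genes tested). Lower calls numbered 19 to 30 (32.8% to 51.7%, against 22.4% to 36.8% of all genes tested). At an adjusted p under 0.01 the counts were 11 and 17 (19% and 29.3%, against 30.7% and 22% of all genes tested). With a log2 fold change of at least 1 also required, 7 were higher (12.1%) and 8 lower (13.8%), against 1990 (19.2%) and 1440 (13.9%) of all genes, so the larger share of lower genes was not seen there. The median log2 fold change was -0.43 under median-of-ratios scaling, and when 1 library was left out it was -0.33 to -0.24. Same-numbered libraries did not deviate together (correlations 0.036, -0.19 and -0.17). A fit with the replicate number as a block gave 11 higher and 22 lower (19% and 37.9%, against 35.3% and 26.8% of all genes tested). The calls of Eif3m, Eif4enif1 and Eif5 were lost in that fit (limma adjusted p = 0.069, 0.1 and 0.054).

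Eef2 turned to -0.93 under quantile normalization (adjusted p = 0.0011), and the cause was not tested. The other sign changes concern genes with no call. Under median-of-ratios scaling Eif1b was -0.029, Eif2b5 -0.078, Eif4g2 -0.050 and Eef1d -0.12. Under quantile normalization Eif3b was 0.13, Eif3g 0.037 and Eef1g 0.063. Without replicate 3 of both groups, a setting chosen after seeing the data, Eif3b was 0.058, Eif4g2 -0.19 and Eef1g 0.23; Eif1b (0.25) and Eif2b5 (0.24) were called higher there. With 1 library left out, values crossed 0 for Eif1b (-0.0035 to 0.22), Eif2b5 (-0.029 to 0.17), Eif3b (-0.14 to 0.012), Eif4g2 (-0.18 to 0.23), Eif4g3 (-0.24 to 0.023), Eef1d (-0.12 to 0.13) and Eef1g (-0.17 to 0.13), and for the within-library differences of Eif4a2/Eif4a1 (-0.29 to 0.045) and Eif4g3/Eif4g1 (-0.050 to 0.16). Depth limits Eif4ebp3 and Eef1akmt3, which had at most 2 and 12 reads in a library.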
